A study of Mus musculus with 6 samples.

Results

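The microRNA miR-193a was followed through both of its mature products, mmu-miR-193a-3p and mmu-miR-193a-5p (below without the species prefix), in whole mouse kidney. They were taken by their exact names in the array design, and they are 2 of the 1247 mouse miRNAs that the array measures. The samples were kidneys of male C57BL/6 mice, a standard inbred strain, aged 2 months (young, 3 arrays) or 20 months (aged, 3 arrays). No genetic change and no treatment is given for either group, and both groups consist of males of the same strain. Each array held RNA from its own preparation. The labels do not tie the preparations to animals, so a p-value here reflects how far preparations differ, and part of that may be technical.

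A miRNA is cut from a hairpin-shaped precursor, and the 5p and 3p strands of that hairpin can each be loaded into an Argonaute protein and guide it to messenger RNAs. The recognition rests mainly on the seed, a short stretch near the 5′ end. In kidney, miR-193a is known from podocytes, the cells that wrap the glomerular capillaries and form part of the filtration barrier. Raised miR-193a in mice causes focal segmental glomerulosclerosis, with repression of WT1, a transcription factor that podocytes need. The 3p strand is also known as a repressor of growth-promoting genes in tumours. Whole kidney consists largely of tubule, so fewer podocytes and less miRNA per podocyte cannot be told apart in these samples.

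The sequences show how the arms differ from each other and from their closest relatives. All were read from RefSeq (GRCm38.p6), 5′ to 3′, with the seed (bases 2 to 8) in capitals. The relatives are the arms of miR-193b, made from a separate gene, and miR-365-3p, whose hairpins lie beside those of both miR-193 genes.
miR-193a-5p: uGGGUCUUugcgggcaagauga
miR-193a-3p: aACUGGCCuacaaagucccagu
miR-193b-5p: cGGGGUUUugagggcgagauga
miR-193b-3p: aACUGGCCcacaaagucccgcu
miR-365-3p: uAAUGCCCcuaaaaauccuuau

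The 3p strands of miR-193a and miR-193b had the same seed, and no other mature mouse miRNA in the RefSeq table had it. They shared 19 of 22 bases. Counted from the 5′ end, with the miR-193a base first, the differences were U9C, A20G and G21C, all outside the seed. Cross-hybridisation between such close strands was not tested. The 5p strands shared 17 of 22 bases and differed at U1C, U5G, C6U, C11A and A16G. U5G and C6U lie in the seed, so the 5p strand of miR-193a had a seed found in no other mature miRNA of the table. The hairpin below shows in capitals where both products lie, the 5p strand at bases 7 to 28 and the 3p strand at bases 41 to 62 of 66, with 12 bases of loop between them.
Mir193a hairpin: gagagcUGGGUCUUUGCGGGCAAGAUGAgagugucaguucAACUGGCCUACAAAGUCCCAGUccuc

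In the RefSeq table Mir193a overlapped no other annotated gene (0 genes), and its next gene was Mir365-2. Mir193b had the same arrangement with Mir365-1, but overlapped 2 other annotated genes.

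The arrays were of 1 colour, with 10 or 20 spots for each probe of these miRNAs. A probe was taken as well above background on an array when over 50% of its spots carried that mark of the scanner software. Per array, 177 to 209 miRNAs were well above background, with the lowest number on aged array 3. Within each age the arrays resembled each other, the aged ones less closely. Correlations over miRNAs were 0.998 between young arrays and 0.972 to 0.989 between aged arrays. The tissue label was checked on miRNAs of known origin. The tubule-rich miR-192-5p, miR-194-5p and miR-204-5p were well above background on all 6 arrays, while miR-215-5p, the remaining tubule marker listed, was so on none (0 arrays). Of miRNAs from other organs, miR-122-5p of liver, miR-133a-3p of muscle and miR-9-5p of brain were well above background on none (0 arrays). The other members of that list of miRNAs from other organs were above background on some arrays, miR-1a-3p of muscle on 2 young and 2 aged arrays and miR-124-3p of brain on all 3 aged arrays.

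Neither arm of miR-193a differed between the ages past the threshold, an adjusted p of 0.05. This was 0 of 2 arms, where limma with Benjamini-Hochberg adjustment called 7.77% of all tested miRNAs. Neither arm had groups that did not overlap, while of all tested miRNAs 10.4% had such groups with aged kidney higher and 20.2% with aged kidney lower. The 3p arm was bright and lay at nearly the same level at both ages. The 5p arm was dim and lay somewhat higher in aged kidney, within an interval that includes no change. The 3p signal over the 5p signal was lower on 1 aged array than on all the others.

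For mmu-miR-193a-3p the scaled log2 signal was 0.36, 0.42 and 0.58 on the young arrays and 0.54, 0.50 and 0.12 on the aged ones. Scaled means divided by the array's 75th percentile of probe intensity, so that 0 is the level of that percentile. The groups overlapped, with aged arrays 1 and 2 inside the young range and aged array 3 below it. The means were 0.45 ± 0.11 (SD, n = 3) in young and 0.39 ± 0.23 (SD, n = 3) in aged kidney. The aged level was 0.956 times the young one, with a 95% interval from 0.764 to 1.20 times. On the log2 scale this is a difference of -0.06 ± 0.13 (limma SE), with a limma adjusted p of 0.797. The exact two-sided permutation test gave p = 0.8, where 3 arrays against 3 cannot give less than 0.1. By its p, miR-193a-3p ranked 156 among all tested miRNAs, where rank 1 has the smallest p.

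That difference lay close to the median of all tested miRNAs, which was -0.08. Relative to this median, miR-193a-3p stood 0.02 higher in aged kidney. Its sign is not settled, since it moved with the way arrays were scaled. It was 0.35 when the 75th percentile was that of every probe on the array, where the median of all tested miRNAs was itself 0.33. Relative to the median the value was again 0.02.

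For mmu-miR-193a-5p the scaled log2 signal was -4.38, -4.59 and -4.19 on the young arrays and -4.24, -4.17 and -3.81 on the aged ones. Young array 2, the lowest of the 6, was not well above background, so only 2 of the 3 young arrays measured this arm by that mark. Aged array 3 was the highest, and aged array 1 lay below young array 3, so the groups overlapped. The means were -4.39 ± 0.20 (SD, n = 3) in young and -4.07 ± 0.23 (SD, n = 3) in aged kidney. The aged level was 1.24 times the young one, with a 95% interval from 0.960 to 1.61 times. The log2 difference was 0.31 ± 0.15 (limma SE), with an unadjusted p of 0.0858 and a limma adjusted p of 0.259. The exact two-sided permutation test gave p = 0.2. It ranked 64 by p and stood 0.40 above the median difference of all tested miRNAs. Since testing needed all 3 arrays of a group, this arm was tested only through the aged group, where its mean was higher. The same holds for its hairpin's place among the tested arm ratios. Its p and rank carry that selection.

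**Figure D1:**
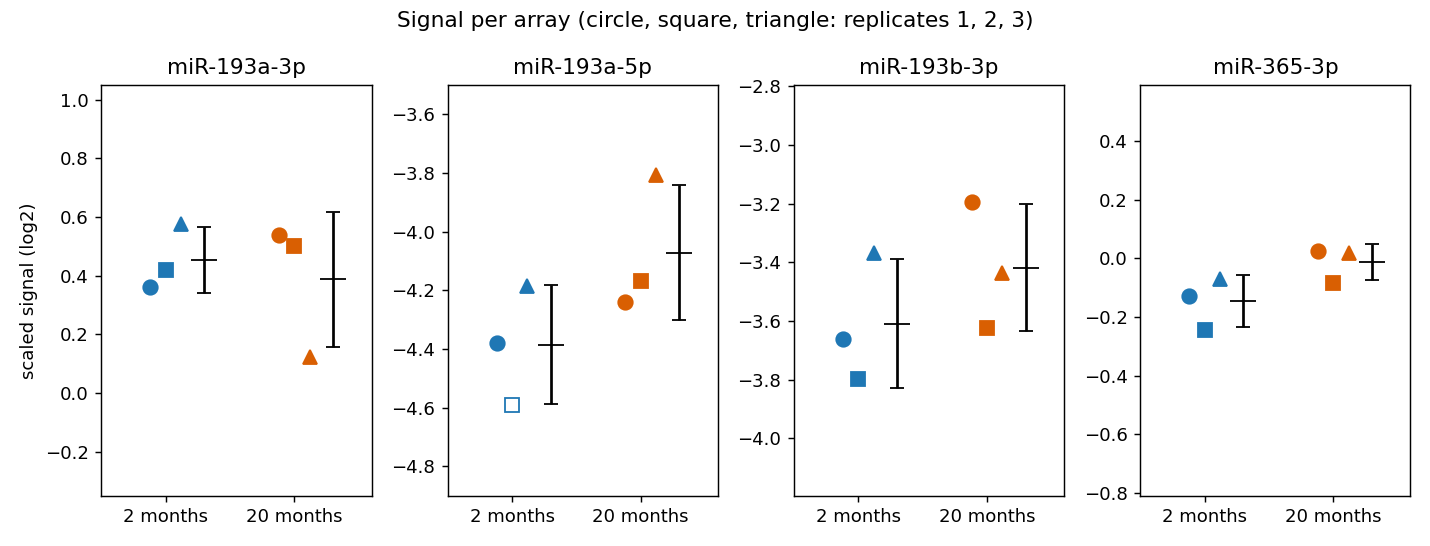
Scaled signal (log2, vertical axis) of both miR-193a arms, miR-193b-3p and miR-365-3p on each array, blue for 2 months and orange for 20 months; circles, squares and triangles are replicates 1, 2 and 3, the open square was not well above background, and bars give mean and SD over 3 arrays. Each panel spans the same range on its axis: aged array 3 is the lowest for miR-193a-3p (0.12) and the highest for miR-193a-5p (-3.81).

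The spread between arrays was larger for these arms than for most miRNAs. The pooled SD within groups was 0.18 for miR-193a-3p and 0.22 for miR-193a-5p, ranking 55 and 47 from the largest, where the median over all tested miRNAs was 0.12. For the 3p arm the SD was 0.11 in young and 0.23 in aged kidney, while for the 5p arm it was 0.20 and 0.23. Aged array 3 lay 0.33 below the young mean for the 3p arm (-0.33) and 0.58 above it for the 5p arm, distances that also hold the difference between the ages. Without that array the log2 difference was 0.07 for miR-193a-3p, with its sign turned, and 0.18 for miR-193a-5p. The limma adjusted p was then 0.676 and 0.432.

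Single probes show what each signal rests on. For miR-193a-3p the design has 2 probes with 20 spots each, A_54_P2374 and A_54_P2375. Their unscaled intensities ran from 341 to 736 and from 1057 to 2171 over the 6 arrays, and every kept spot was well above background. The dimmer probe gave 24.0 to 25.3% of the summed signal on every array. Both probes gave similar values, with log2 differences between the ages of -0.05 and -0.07, and both had overlapping groups.

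For miR-193a-5p there are 4 probes with 10 spots each, and only a pair of them gave signal. A_54_P3345 and A_54_P3346 were well above background on none of the arrays (0 of 6). Their mean intensities ran from -9.97 to -3.77 and from -3.42 to 0.67, where negative values arise from the background subtraction of the scanner software. The 1000 negative control spots of each array had medians of 2.36 to 3.34 and a robust SD of 5.62 to 7.14 on that scale. A_54_P3348, the brightest probe of this arm, ran from 37.0 to 73.4 and was well above background on 5 arrays. A_54_P3347 ran from 25.5 to 49.6 and was well above background on 3 arrays, all of them aged.

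Since A_54_P3347 was well above background on no young array (0 of 3), no difference is given for it. For A_54_P3348 the scaled log2 difference was 0.13, with overlapping groups and an exact permutation p of 0.6, and its value on young array 2 was not well above background. The dark probes entered the summed 5p signal with a negative share, except A_54_P3346 on aged array 2 (0.59%). For A_54_P3345 that share was -20.0% on young array 2 and -4.12% on aged array 3. With the sum restricted to probes well above background on at least 1 array, a setting chosen after the data were seen, the 5p difference was 0.20 ± 0.12 (limma SE, adjusted p 0.336).

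**Figure D2:**
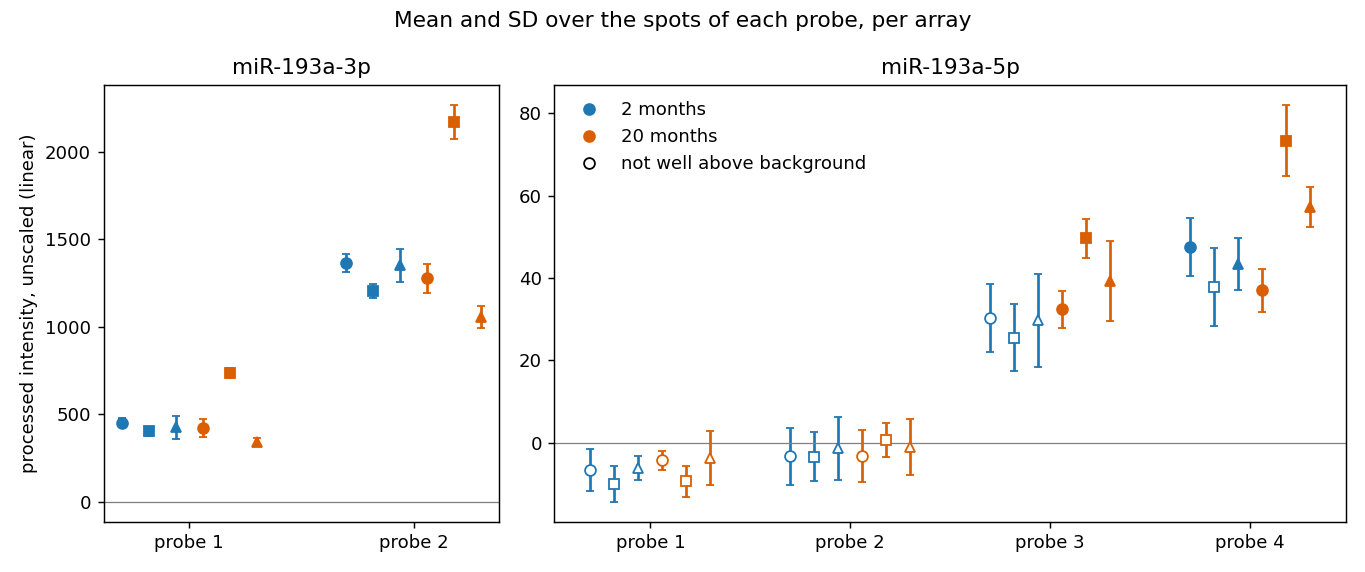
Unscaled processed intensity (linear, vertical axis) of each probe of miR-193a-3p (left) and miR-193a-5p (right, on its own axis) on the 6 arrays, with SD over spots as bars; blue is 2 months, orange 20 months, and open symbols are not well above background. Both 3p probes lie far above 0 on every array, while 5p probes 1 and 2 lie around or below 0 and the brightest 5p probe reaches 73.4.

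The arm ratio sets the 3p signal over the 5p signal within an array, so it does not change when an array as a whole is scaled by a constant. It compares probe signals, and probes differ in how strongly they bind, so its size is not a ratio of molecules. On the young arrays the 3p signal was 26.7, 32.2 and 27.2 times the 5p signal. The 32.2 of young array 2 is over a 5p signal that was not well above background, so its size is uncertain. On the aged arrays it was 27.5, 25.4 and 15.3 times. Aged arrays 1 and 2 lay near or within the young range, and aged array 3 stood apart from all the others.

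On the log2 scale the ratios were 4.74, 5.01 and 4.76 in young and 4.78, 4.67 and 3.93 in aged kidney. The means were 4.84 ± 0.15 (SD, n = 3) and 4.46 ± 0.46 (SD, n = 3). The difference was -0.38 ± 0.23 (limma SE), with a 95% interval from -0.94 to 0.19. Over the 12 hairpins with both arms tested, limma gave an adjusted p of 0.463, and the exact permutation test gave p = 0.3. Without aged array 3 the difference was -0.11 ± 0.10 (limma SE), and without young array 2 it was -0.29 ± 0.26.

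Of the 422 hairpins with both arms on the array, these 12 had both arms bright enough to be tested. None of them changed its arm ratio (0 of 12, or 0%, by limma adjusted p, and also 0 at an unadjusted p under 0.05). The median change over the 12 was 0.01, with 6 higher and 6 lower. Among them miR-193a had the largest change and the largest pooled SD, 0.34 against a median SD of 0.08. The largest change was not kept without aged array 3, where miR-455 had -0.19 and miR-193a -0.11. With normexp miR-193a ranked 10 of 12 by size, with the slide row as a block 8, and with the mean of log2 probe values 5. The next in size were miR-22, a hairpin of many tissues, with 0.15 ± 0.07 (limma SE), and miR-140, best known from cartilage, with 0.14 ± 0.08. The nearest to miR-193a in signed change were miR-455 with -0.07 ± 0.12 and miR-378a, made from an intron of a metabolic regulator, with -0.06 ± 0.05. Non-overlapping groups were seen in 1 hairpin, miR-142 of blood cells (8.33% of the 12), and not in miR-193a.

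**Figure D3:**
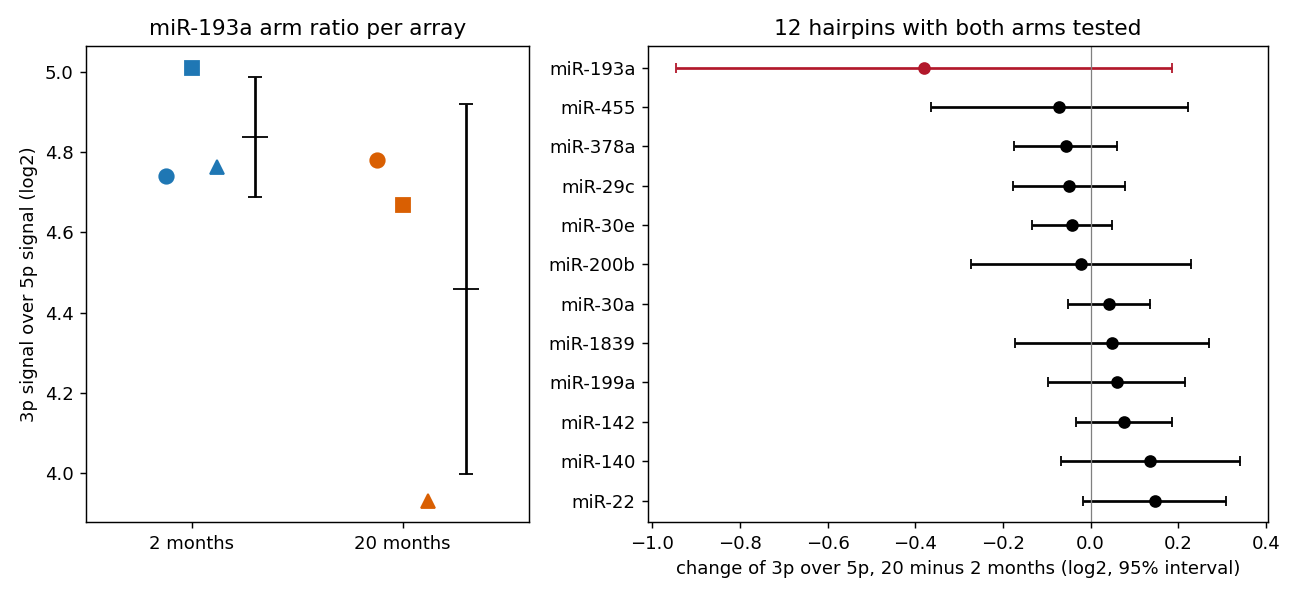
Left, the miR-193a signal ratio of 3p over 5p (log2) on each array, with mean and SD over 3 arrays per age; right, the change of that ratio between the ages (20 minus 2 months, log2) with its 95% interval for the 12 hairpins with both arms tested. Aged array 3 (3.93, triangle) stands below the other 5 arrays, and every interval on the right includes 0.

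The value of the 5p arm, and with it the ratio, was different with normexp. That setting took median spot signals, normexp background correction and an offset of 50 together in place of the software's processed signal, and their parts were not tested apart. The 5p difference was then -0.09 ± 0.16 (limma SE) and the ratio's 0.03 ± 0.21. The ratios were 2.15, 2.05 and 2.17 in young and 2.14, 2.61 and 1.70 in aged kidney, so that aged array 2 stood above the young arrays and aged array 3 below them. The 3p difference was -0.06 under both settings.

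In the authors' deposited table, the log2 ratio of 3p over 5p was 5.54, 5.67 and 5.61 on the young arrays and 5.62, 5.56 and 4.86 on the aged ones. Aged array 3 had the lowest ratio there too, but these values come from the same scans and are no separate measurement. Fitted to those values, the difference was -0.26 ± 0.21 (limma SE, adjusted p 0.420).

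Place on the slide was not balanced between the ages. Aged arrays 2 and 3 lay in row 2 of the slide, and aged array 1 lay in row 1 with all 3 young arrays. With the row as a block, the comparison rests on aged array 1 alone, and the log2 differences were 0.09 for the 3p arm, 0.15 for the 5p arm and -0.06 for the ratio. Row 2 held aged arrays only and gives no value of its own. The part of the slide row in these differences was not tested further.

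**Figure D4:**
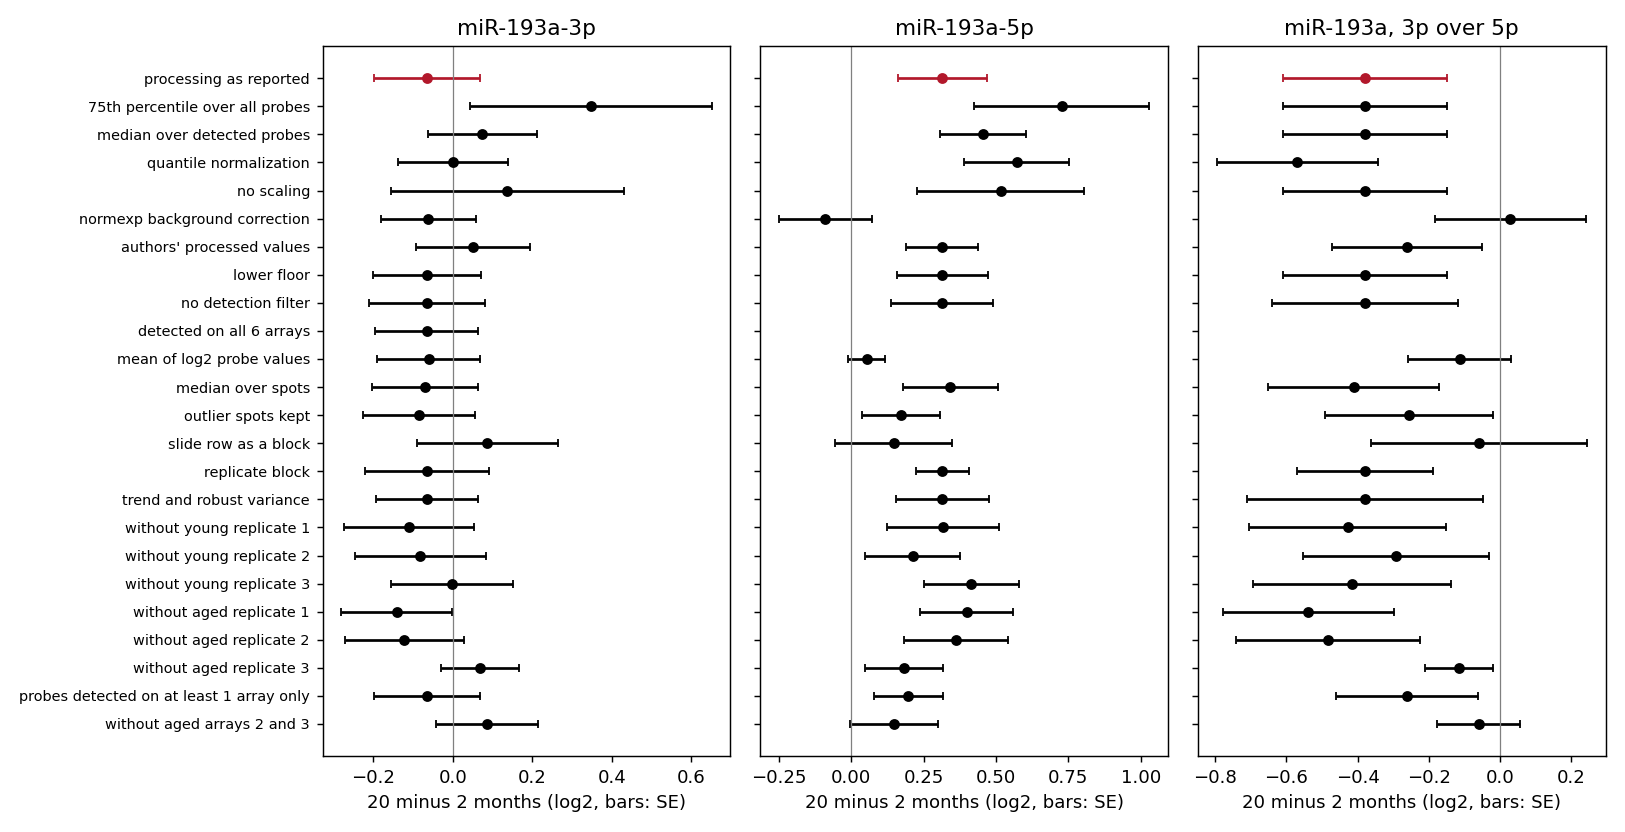
Difference between the ages (20 minus 2 months, log2, horizontal axis; bars are limma SE) of miR-193a-3p, miR-193a-5p and their ratio under the reported processing (red) and each alternative (black, vertical axis). The 3p values lie on both sides of 0 (-0.14 to 0.35), the 5p values are above 0 except with normexp (-0.09), and the ratio is below 0 except with normexp (0.03).

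The relatives of miR-193a were described in the same way, over a list of 7 strands of the miR-193 and miR-365 genes. Of these, 4 were tested and none changed (0 rose and 0 fell, where limma called 4.15% of all tested miRNAs higher and 3.63% lower). Over all tested miRNAs that split depended on the scaling: it was 8 higher and 7 lower here, 18 and 3 with the median of detected probes, 13 and 1 with quantile normalization, and 10 and 0 in a fit to the authors' values. The list's median difference was 0.16, beside -0.08 over all tested miRNAs, with 3 of 4 positive.

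miR-193b-3p, which shares the 3p seed shown above, had values of -3.66, -3.80 and -3.37 on the young arrays and -3.19, -3.62 and -3.44 on the aged ones. The groups overlapped, and aged array 1 was the highest. The log2 difference was 0.19 ± 0.16 (limma SE, adjusted p 0.454), and aged array 3 did not stand apart.

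miR-365-3p, made from hairpins next to both miR-193 genes, had values of -0.13, -0.24 and -0.07 on the young arrays and 0.03, -0.08 and 0.02 on the aged ones. Aged array 2 lay within the young range and the other aged arrays above it. The log2 difference was 0.13 ± 0.08 (limma SE, adjusted p 0.333). Its array design name does not separate the products of the Mir365-1 and Mir365-2 hairpins, which have the same 3p sequence. The passenger strands miR-193b-5p, miR-365-1-5p and miR-365-2-5p were well above background on no array (0 of 6), so for miR-193b and miR-365 no arm ratio could be formed.

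A list of 10 miRNAs linked to podocytes held both miR-193a arms, 5 members of the miR-30 family, miR-23b-3p, miR-24-3p and miR-26a-5p. The miR-30 family is known to protect podocytes from injury. All 10 were tested and none changed (0 rose and 0 fell, beside 7.77% called over all tested miRNAs, at which fewer than 1 call would fall among 10). The differences were positive for 5 and negative for 5, with a median of 0.01. Most of these are also made by other kidney cells, so the list does not measure podocytes alone.

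After miR-193a-5p, the smallest p-values in that list belonged to miR-30b-5p and miR-26a-5p. miR-30b-5p had a log2 difference of -0.15 ± 0.08 (limma SE, adjusted p 0.318). miR-26a-5p had 0.15 ± 0.09 (adjusted p 0.332). In 1 member, miR-30d-5p, the groups did not overlap, as in 30.6% of all tested miRNAs. Its values were -1.01, -0.99 and -0.98 in young and -1.07, -1.30 and -1.05 in aged kidney, with a limma adjusted p of 0.346.

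**Figure D5:**
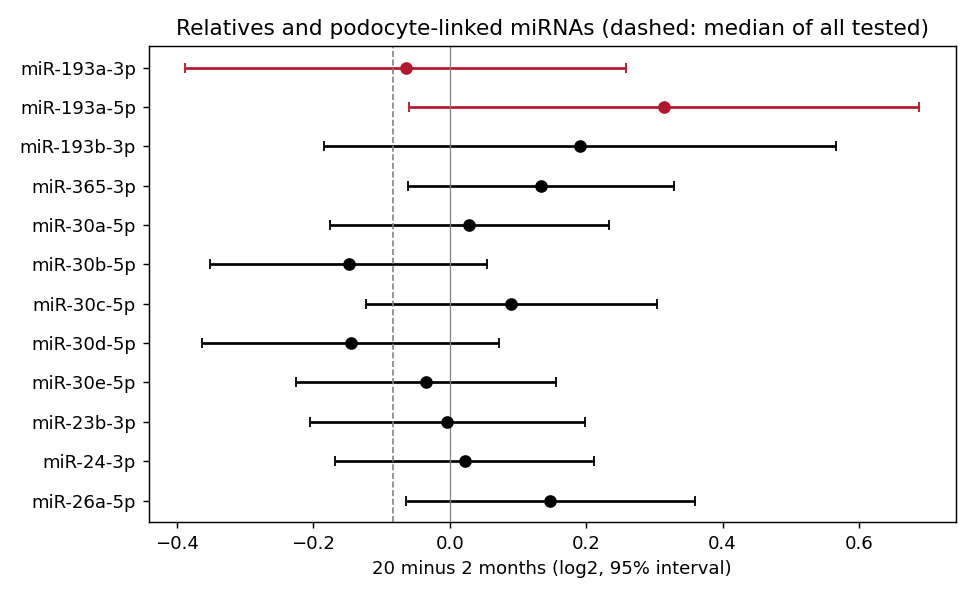
Difference between the ages (20 minus 2 months, log2, horizontal axis) with its 95% interval for the tested strands of the miR-193 and miR-365 genes and for the podocyte-linked miRNAs, both miR-193a arms in red; the dashed line is the median of all tested miRNAs (-0.08). Every interval includes 0.

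Markers of other cell types were looked at because whole kidney mixes them. In these lists 4 of 23 tested members passed limma's adjusted threshold, or 17.4%, beside 7.77% over all tested miRNAs. miR-199a-5p and miR-199a-3p, of stromal and smooth muscle cells, rose with log2 differences of 0.34 (adjusted p 0.0258) and 0.40 (adjusted p 0.0391). In the same list miR-143-3p and miR-145a-5p, known from smooth muscle, had -0.27 (adjusted p 0.12) and -0.25 (adjusted p 0.149). Their groups did not overlap, with aged kidney lower, which 20.2% of all tested miRNAs showed. The remaining members, miR-199a-5p, miR-199a-3p and miR-214-3p, had non-overlapping groups in the opposite direction, which 10.4% of all tested miRNAs showed. The epithelial miR-141-3p fell by 0.38 (adjusted p 0.0415). That call was kept in 7 of 23 alternatives. When scaled to the 75th percentile of every probe, the value was 0.03 (limma adjusted p 0.943), but the median of all tested miRNAs was itself 0.33 there. The calls of miR-199a-5p and miR-199a-3p were kept in 13 and 9 of 23 alternatives. miR-124-3p, a neuronal miRNA, is among those 4 calls, as higher, but was well above background on no young array (0 of 3) and on all 3 aged arrays. It was therefore tested only through the aged group. Its young values were all raised to the floor put under low sums (-5.22, log2). The size of its difference depends on that floor, with 1.37 as reported and 3.37 with a lower floor.

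The summed level of the 5 stromal markers was 1.04 to 1.1 (log2) on the young and 1.23 to 1.36 on the aged arrays, with 3 members higher and 2 lower in aged kidney. The 6 leukocyte markers, 5 of them tested, summed to -0.32 to -0.12 in young and 0.02 to 0.27 in aged kidney, with 0 called. All 5 differences were positive, and 4 members had non-overlapping groups with aged kidney higher, beside 10.4% of all tested miRNAs. The smallest p was that of miR-223-3p, with 0.55 (limma adjusted p 0.051). The 3 red cell markers summed to 3.07 to 3.23 in young and 2.67 to 2.84 in aged kidney, also with 0 called. All 3 had non-overlapping groups with aged kidney lower, beside 20.2% of all tested miRNAs. Their differences were -0.34 for miR-451a, -0.56 for miR-3107-5p and -0.73 for miR-144-3p (limma adjusted p 0.0528, 0.0528 and 0.124). The 5 epithelial markers summed to 3.14 to 3.29 in young and 2.94 to 3.12 in aged kidney. Endothelial miR-126-3p overlapped between the ages, and miR-126-5p was well above background on no array. Of the proximal tubule markers, miR-194-5p had 0.28 (limma adjusted p 0.104), miR-192-5p 0.14 (0.434) and miR-204-5p -0.04 (0.842). The remaining tubule marker, miR-215-5p, was well above background on no array. The part of these cell types in the miR-193a values was not tested.

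The miRNAs most like each arm over the 6 arrays were ranked by the root mean square difference of their centred log2 values. This is a description over 6 arrays that share their scaling. The miRNAs were picked on these same values, so sharing a lowest or highest array with an arm follows largely from the ranking. For miR-193a-3p the nearest of 172 others were miR-350-3p (0.10), miR-362-3p (0.10) and miR-340-5p (0.10), where the median was 0.22. All 3 had their lowest value on aged array 3. For miR-193a-5p the nearest of 173 were miR-214-3p (0.10), let-7b-5p (0.10) and miR-130a-3p (0.10), with a median of 0.25, and these had their highest value on aged array 3.

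The arms of miR-193a themselves stood 0.34 apart on that measure. Of the 172 others, 144 were nearer to the 3p arm than the 5p arm was. The opposite places of aged array 3 in the arms account for most of that distance, since it lay -0.30 from the mean of the 3p arm and 0.42 from that of the 5p arm.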

How the data were processed

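Arrays of Agilent design 046065 (build mm9) were scanned and read by Feature Extraction 11.5.1.1, per the file headers. The deposited spot values are fluorescence intensity after that software's background subtraction, with no scaling between arrays, and the deposited flags mark outlier spots and spots well above background, per the file headers. The authors' deposited table is on a log2 scale. Its values were log2 of the software's summed signal for each miRNA minus a constant for the array (largest departure 1e-05 over 1268 features). Scale and direction are thus settled, and how the constant was chosen is unknown. Its medians were -9.74, -9.21 and -9.21 on the young and -9.49, -10.1 and -9.20 on the aged arrays.

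Spots that were not outliers were averaged for each of 3105 probes. Each array was scaled to the 75th percentile of the 315 probes detected (well above background) on every array. Probes were summed per miRNA, and sums below -5.22 (log2) were raised to that floor. Testing covered 193 miRNAs, those detected on all 3 arrays of either group, with limma 3.58.1 in R 4.3.3 (lmFit, eBayes), Benjamini-Hochberg adjustment over all of them and a threshold of 0.05. Arm ratios were fitted in the same way over 12 hairpins. Precision is limited by the 3 arrays per group. No arrays were identical (0 pairs) and no spot was saturated (0). The fit was tested on simulated data. Those data had independent normal noise and no floor, detection filter or slide row, so they do not cover the limits of the dim 5p signal.

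The normexp alternative took median spot signals with an offset of 50, since no mean signal column was used here. Members, lists and tests were chosen with earlier results of these data known. Named are both arms, every miR-193 and miR-365 strand, up to 3 members with the smallest p of each other list, the 3 miRNAs most like each arm, and the hairpins nearest to miR-193a or with the largest changes. Members of other lists without a call are mostly given by list. miR-145 and miR-486 were matched to the design's names through RefSeq synonyms. RefSeq's build is not the design's, so it served for sequences and neighbouring genes and for no coordinates. Figures were drawn with matplotlib 3.10.9.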

Additional observations from a re-analysis of the deposited data

How the results depend on the processing

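Over 23 alternatives with limma for miR-193a-3p, and 22 for miR-193a-5p and the ratio (the 5p arm is not among the miRNAs detected on all 6 arrays), no setting brought either arm or the ratio past limma's adjusted threshold. The adjusted p ran from 0.454 to 0.997 for miR-193a-3p, from 0.112 to 0.799 for miR-193a-5p and from 0.168 to 1 for the ratio. The sign of the 3p difference turned in 8 alternatives. Scaling to the 75th percentile of every probe gave 0.35, scaling to the median of detected probes 0.075, and quantile normalization 0.0014. It was 0.14 without scaling, 0.051 in the authors' values, and 0.087 both with the slide row as a block and without aged arrays 2 and 3. Leaving out each array in turn gave -0.14 to 0.068 for the 3p arm, 0.18 to 0.41 for the 5p arm and -0.54 to -0.11 for the ratio. Relative to the median of all miRNAs, the 3p difference ran from -0.07 to 0.18 and the 5p difference from 0.01 to 0.57. With normexp the 5p difference was -0.090 and the ratio's 0.029. The cause of these turns was not tested.

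The count of miRNAs past the threshold was 15 as reported. It was 2 without scaling, 4 with normexp, 6 without a detection filter (where limma warned of many variances at 0), 5 with the slide row as a block, and 5 to 39 with each array left out in turn. For the miR-193 and miR-365 list and for the podocyte list it was 0 under every alternative run. For the markers of other cell types it was 4 as reported. It was 2 when scaled to the 75th percentile of every probe, without a detection filter and with outlier spots kept. It was 7 when scaled to the median of detected probes, 7 with the mean of log2 probe values, 1 without scaling and with the slide row, 0 with normexp, and 1 to 9 with each array left out in turn.

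Replicate numbers are shared between the ages, and the labels do not state that they pair samples. Deviations of same-numbered arrays from their group means had correlations of 0.12, -0.58 and 0.31. Those of different-numbered arrays ran from -0.48 to 0.40. With 3 arrays per group these values cannot tell whether the numbers pair samples. With the replicate block the count was 3, and 1 for the markers of other cell types. With the replicate block the differences were -0.06 for miR-193a-3p, 0.31 for miR-193a-5p (adjusted p 0.124) and -0.38 for the ratio (adjusted p 0.494). The dim 5p signal limits what these arrays can show for that arm and for the ratio. The alternatives restricted to probes detected on at least 1 array and without aged arrays 2 and 3 were chosen after the data were seen.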
